A study of Mus musculus with 12 samples.

Results

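Rab GTPases are small membrane-bound GTPases that mark the organelles of a cell and steer the vesicles that travel between them. Here all 57 genes were followed whose symbol consists of Rab, a number and at most a letter and a further number, out of 21937 genes in the deposited table. The rule used symbols alone and no measured value. Proteins that bind or regulate Rab GTPases, such as Rab11fip2 or Rabac1, do not meet it. The table carries the older symbols Rab1, Rab6, Rab7, Rab9 and Rab7l1.

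The data are RNA sequencing of myelin, the membrane stack that oligodendrocytes wrap around axons, which was isolated as a light membrane fraction of brain tissue. Wild-type c57Bl6/N males were used throughout, and age was the only difference that the labels gave. The ages were the postnatal days P18 and P75 and then 6 and 24 months, each with 3 libraries, which makes 12. The fraction is enriched for myelin and is no pure cell type, and in such a bulk sample fewer cells of a type and less RNA per cell cannot be told apart.

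A Rab protein cycles between a GDP-bound form, held in the cytosol by a GDP dissociation inhibitor, and a GTP-bound form on a membrane, where it recruits effectors such as tethers and motors. Exchange factors switch it on and GTPase-activating proteins switch it off. Rab GTPases are known for carrying myelin proteins such as PLP from the Golgi and endosomes to the myelin membrane of oligodendrocytes, and in neurons for the cycle of synaptic vesicles.

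Expression is given as the normalized read count, which is the number of reads on a gene divided by a size factor of its library, not corrected for length. The depth was 20299052 to 27214385 reads on genes per library. Mbp alone took 9.47% to 20.8% of the reads at P18 and 4.76% to 8.48% at the later ages. Each of the 12 myelin markers had a mean over 100, and so had the 9 astrocyte and 9 microglial markers, so transcripts of other cells were present. Of 12 neuronal markers 11 were in the table, each above 0 in every library, and their summed count was 183270 to 223379 in the P18 libraries, 212771 to 241174 in those of P75, 194641 to 199500 at 6 months and 183707 to 189785 at 24 months. The summed count of the microglial markers was 4518 to 5831 in the P18 libraries, 6805 to 8026 in those of P75, 8483 to 9460.0 at 6 months and 11969 to 14135 at 24 months. How far these cells contributed to the Rab transcripts below was not tested.

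Nearly all Rab proteins end in 1 or a pair of cysteines, to which geranylgeranyl lipids are attached as the membrane anchor. The end of the coding sequence is therefore shown for Rab GTPases of several compartments, as the last 27 coding bases with the stop codon, cysteine codons in capitals, read from GENCODE vM1 transcripts on NCBIM37.
Rab7: gcctccgcagaaagcTGCagtTGTtga
Rab24: tacttctacagcTGTTGTcatcactga
Rab9: cccaagccaaactcatctTGCTGTtga
Rab9b: tccaaagcaagttcttctTGTTGTtag
Rab31: ttgcaagccagccgtcggTGCTGCtga
Rab5a: gccagaagccagTGTTGTagtaactga
Rab4a: ccaagtgcacaggagTGTggcTGCtag
Rab11a: aaggtgcagTGCTGTcagaacatctaa
Rab35: agtaaacgaaagaaacgcTGCTGCtaa
Rab6: gtcaatgaaggcggcTGTtccTGCtaa
Rab6b: gccagcgagggcggcTGCtccTGTtaa
Rab3a: ccacctcatcaggatTGTgccTGCtga
Among the 57 genes, 18 ended in a cysteine, another residue and a cysteine, as Rab7, Rab4a, Rab6 and Rab3a do. In 14 genes both of the last codons were cysteines, as in Rab9, Rab31 and Rab35. A cysteine stood 4th from the end in 21 genes, among them Rab24, Rab5a and Rab11a. Of the genes with none of these ends, 3 (Rab20, Rab34 and Rab44) had a pair of cysteines before other residues. Such a pair also stood in genes counted above, such as Rab24, Rab5a and Rab11a. The longest annotated coding transcript of Rab43 had none of these ends.

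Most Rab genes of the table were detected in the myelin fraction. A mean of at least 10 normalized counts over the 12 libraries was reached by 14634 of the 21937 genes of the table. Of the 57 Rab genes 52 reached it, and only these were tested for change. The 5 below it were Rab20, an endosomal Rab, with a mean of 9.28, Rab44 with 3.17, Rab19 with 2.56, and the epithelial Rab25 and Rab17 with 2.44 and 0.517. Rab17 had at most 2 reads in a library, and Rab44 was at 0 in each 6-month library.

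Levels of different genes can be compared only per length, here as normalized read count per kilobase of merged exons. On that scale Rab2a, a Rab of traffic between the endoplasmic reticulum (ER) and the Golgi, led with 4729.9 over the 12 libraries. Rab3a, the Rab of synaptic vesicles, followed with 4567 and Rab6, which works within the Golgi, with 3682. At P18 Rab3a and Rab2a were at 6154 ± 955 and 6065 ± 153 (SD, n = 3) per kilobase and did not differ beyond their spread. By 6 months Rab3a stood at 4550.2 ± 197, Rab6 at 4179 ± 115 and Rab2a at 3699 ± 177. At 24 months Rab3a was at 3834 ± 101, Rab2a at 3811 ± 127 and Rab6 at 3644 ± 114, so that neighbours in the order lay within their spread. A second tier, Rab5a, Rab6b, Rab11b, Rab18 and Rab1, lay between 1740.5 and 1773 over the 12 libraries, and Rab7 was in 27th place with 440. Part of these counts may belong to other loci, or reads that match several loci may be missing from them. Of the 31-base windows of the longest transcript, 26.8% of Rab2a and 12.2% of Rab6 recurred elsewhere in the genome, against 0% of Rab3a. In the second tier the share was 0.34% for Rab6b, 5.6% for Rab18, 9.4% for Rab1, 43.8% for Rab5a and 56.3% for Rab11b. For Rab7 it was 51.3%, so the places of such genes are uncertain. Exons of Rab6 also overlap those of Mrpl48 on the other strand, and the strand setting of the counting is not given in the sources used here. Such overlaps were also found for Rab7, Rab5a, Rab11b, Rab2b and, over 29 bases, Rab3a, among others.

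**Figure D1:**
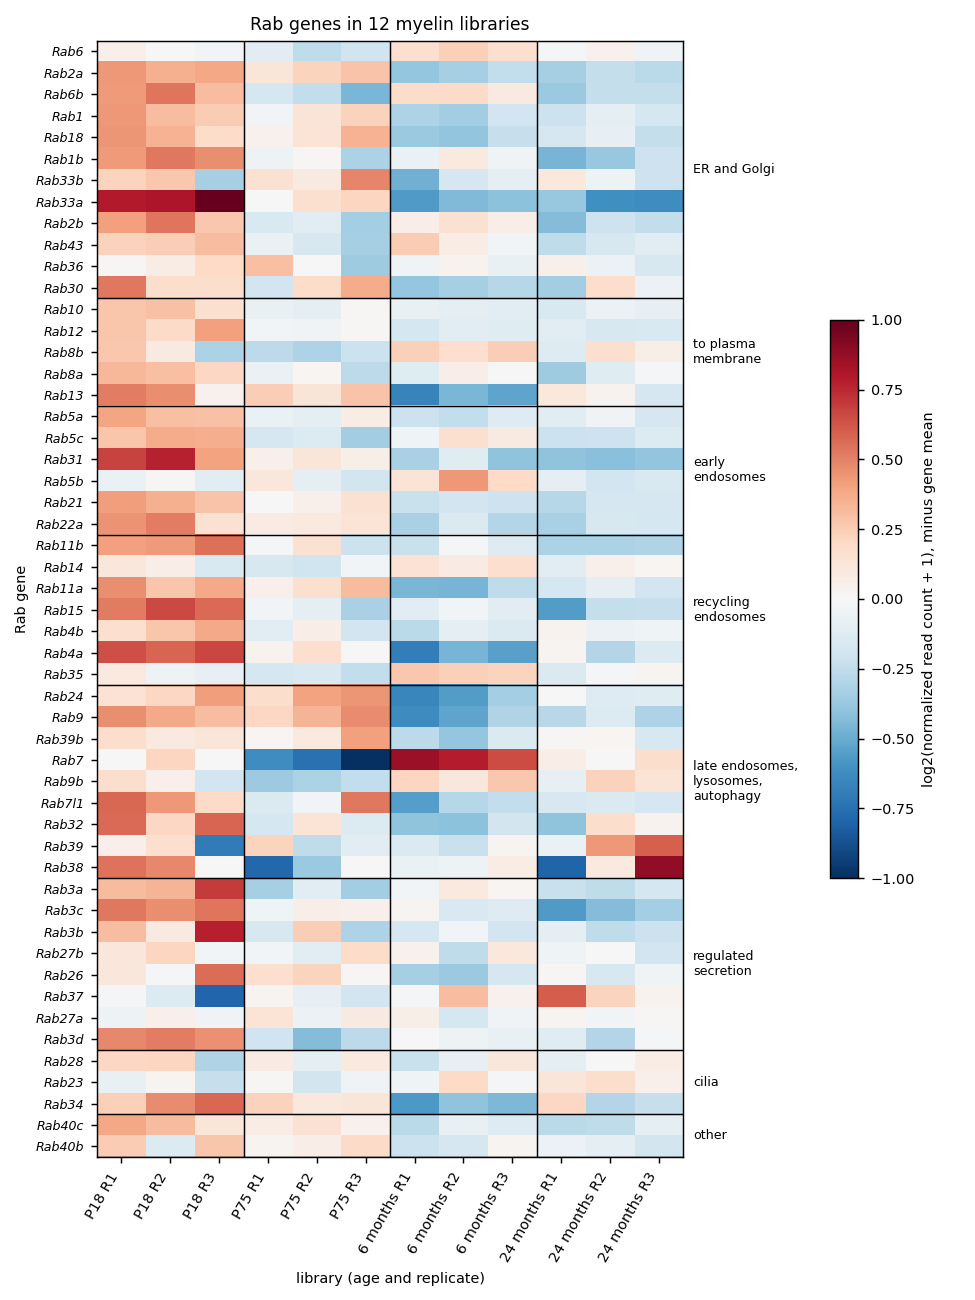
Heat map of the 52 tested Rab genes (rows, grouped by role) in the 12 libraries (columns, by age), as log2(normalized read count + 1) minus the mean of the gene over the 12 libraries, with colours ending at 1 above and below it. Most rows are above their mean at P18 and below it at 24 months, and Rab7 is high at 6 months and low at P75.

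Between P18 and P75, from active myelination to the adult, Rab transcripts fell. Of 52 genes 28 fell and 0 rose at an adjusted p under 0.1 (limma on log2(normalized read count + 1), two-sided, Benjamini-Hochberg over 14634 genes), where 22.9% of all genes fell and 25.9% rose. The median change of the 52 genes was -0.28 on the log2 scale, against 0.02 over all genes tested, and 44 of the 52 changes were negative. No library of P18 overlapped those of P75 in 28 of the 52 genes, against 47.7% of all genes. Without adjustment 29 genes had a p under 0.05 and a negative change and 0 had a positive one. edgeR called 32 falls and 0 rises, and DESeq2 called 28 falls and 0 rises. The summed normalized read count of all 57 genes was 149868 to 152355 at P18 and 116140 to 119720 at P75. These ranges do not overlap, and the sum went on to 113557 to 117496 at 6 months and 104986 to 109094 at 24 months.

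The falls reached most compartments, where 53.8% of all 52 Rab genes and 22.9% of all genes fell. Whether the groups differed was not tested. Falls took in 7 of 12 Rab genes of ER and Golgi traffic and 4 of 5 of transport to the plasma membrane. They also took in 5 of 6 of early endosomes and 5 of 7 of recycling endosomes. Of the 9 tested genes of late endosomes, lysosomes and autophagy 3 fell, and of the 8 of regulated secretion 4, which were Rab3a, Rab3b, Rab3c and Rab3d. Among the ciliary Rab genes and the Rab40 pair, Rab34 came closest with -0.28 ± 0.13 (limma adjusted p = 0.101), and Rab23, Rab28, Rab40b and Rab40c lay between -0.19 and 0.02. The size and number of the falls depended on the scaling, and the part of the Mbp share given above in this was not tested. With every library scaled to the same total, the median of all genes moved to 0.14, that of the Rab genes was -0.15, and 15 Rab genes fell while Rab33b and Rab37 rose. The 15 were Rab11b, Rab15, Rab1b, Rab2b, Rab31, Rab33a, Rab3a, Rab3c, Rab3d, Rab43, Rab4a, Rab5c, Rab6b, Rab7 and Rab8a. The shares of all genes that rose or fell under that scaling were not counted, and those given above do not apply to it.

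From P75 to 6 months Rab genes changed in both directions, as genes did as a whole. Rises were called for 13 genes and falls for 20, or 25.0% and 38.5% of the 52, where 31.2% of all genes rose and 29.4% fell. The libraries of the ages did not overlap in 35 of the 52 genes, against 63.1% of all genes. Rab7 was the only Rab gene past 2-fold in this comparison. The ER and Golgi group divided into 4 rises (Rab6, Rab6b, Rab2b and Rab43) and 6 falls (Rab33a, Rab2a, Rab18, Rab33b, Rab30 and Rab1). All 6 genes of early endosomes changed, Rab5b and Rab5c upward and Rab5a, Rab21, Rab22a and Rab31 downward. Among late endosomal and autophagic genes Rab7 and Rab9b rose, and Rab24, Rab9, Rab7l1 and Rab39b fell. The median change over the 52 genes was -0.10, against 0.01 over all genes.

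Between 6 and 24 months 6 Rab genes rose and 10 fell, where 16.6% of all genes rose and 12.7% fell, and none of the 16 reached 2-fold. In 23 of the 52 genes the ages did not overlap, against 43.5% of all genes. The rises were those of Rab13, Rab24, Rab4a, Rab34, Rab9 and Rab11a. The falls were those of Rab7, Rab6b, Rab5b, Rab2b, Rab3c, Rab1b, Rab35, Rab43, Rab15 and Rab5c. The 6-month libraries enter both this comparison and the one before it, so the values of each gene are given side by side below and no overlap is counted. With libraries scaled to the same total there were 3 rises and 9 falls, with no count over all genes. Leaving out 24 months replicate 1 left 3 rises and 7 falls, and the count of rises was also 3 without 6 months replicate 1.

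Over the whole span from P18 to 24 months, 35 Rab genes fell and 2 rose, where 34.3% of all genes fell and 34.7% rose. The ages did not overlap in 35 of the 52 genes, against 66.6% of all genes. The falls past 2-fold were those of Rab33a and Rab31. The genes that rose were Rab37, linked to secretory granules, at 0.60 ± 0.17 (limma adjusted p = 0.00632), and Rab23, a ciliary Rab of hedgehog signalling, at 0.21 ± 0.09 (limma adjusted p = 0.0666). Rab37 was at 388 ± 102 at P18 and 584 ± 120.1 at 24 months (SD, n = 3), and Rab23 at 738 ± 65.3 and 850.4 ± 36.5. The ages did not overlap for either gene. Whether these calls held in the alternatives was not checked gene by gene. Among the 35 tested genes with less than 1% of windows elsewhere in the genome, 18 fell and 0 rose from P18 to P75, 6 rose and 15 fell to 6 months, 5 rose and 7 fell to 24 months, and 2 rose and 26 fell over the whole span.

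**Figure D2:**
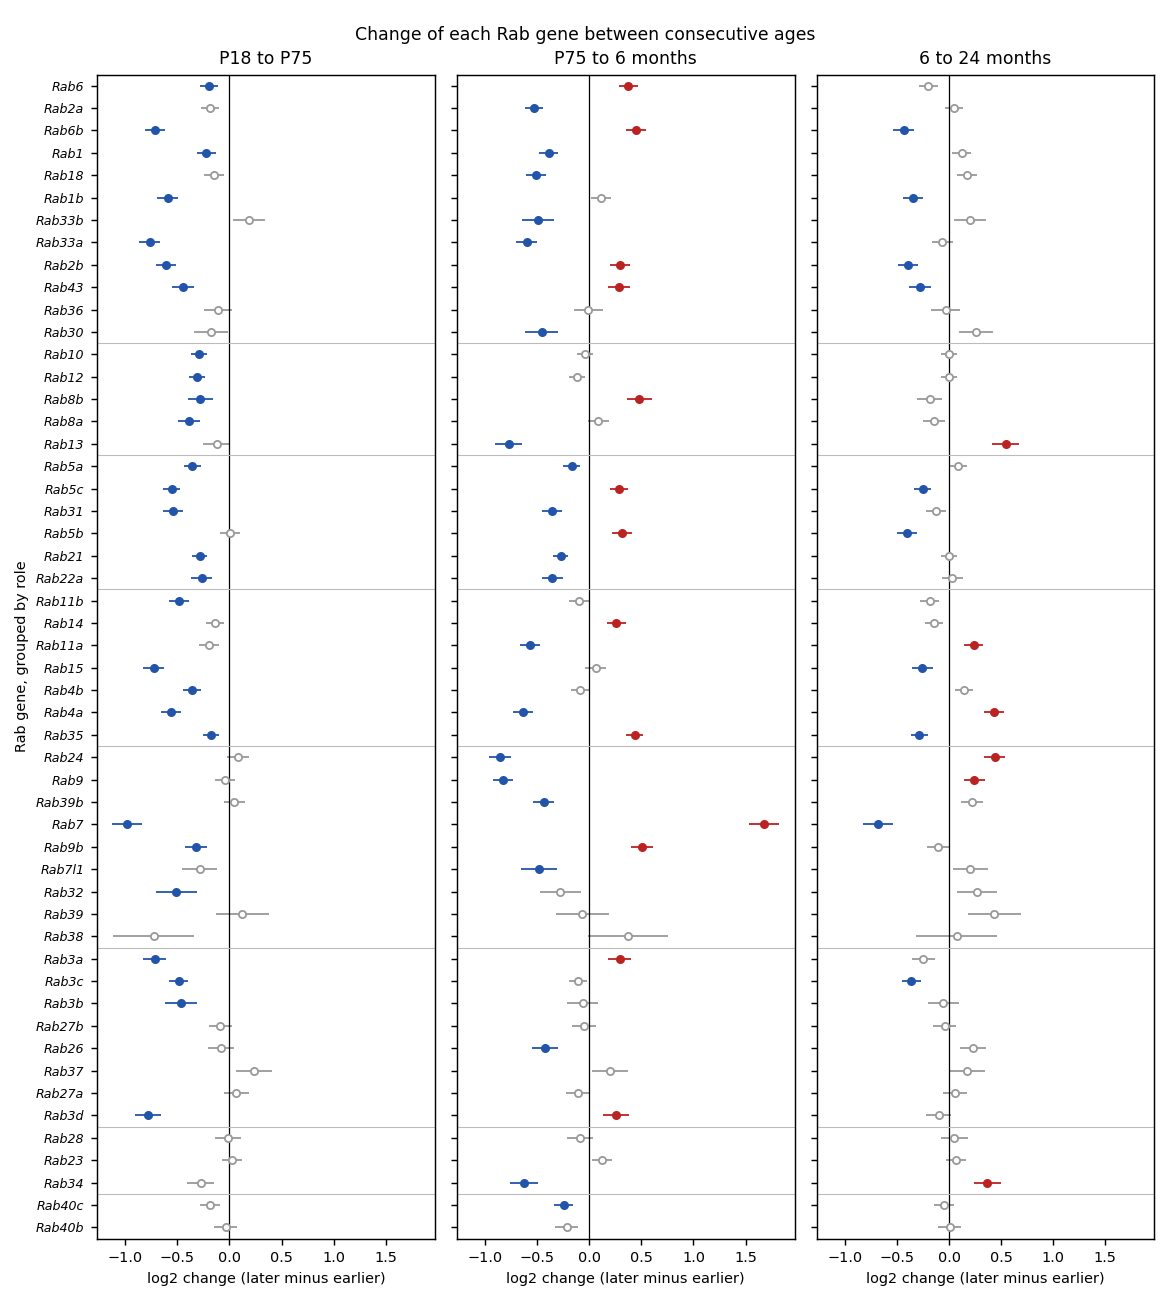
Change of each tested Rab gene in the 3 consecutive comparisons, as the log2 change of normalized read count + 1 with its standard error; red points rose and blue points fell at an adjusted p under 0.1 (limma), and open grey points passed neither way. In the first panel every coloured point lies to the left of 0. In the second Rab7 stands apart at 1.68, and in the third Rab7 is the point furthest to the left.

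Rab7, which drives the maturation of late endosomes and their fusion with lysosomes, changed most of all 52 genes in each consecutive comparison. Its normalized read counts were 1049, 1221 and 1051 in the P18 libraries, 684, 629 and 407 in those of P75, 1908, 1821 and 1657 at 6 months and 1107, 1059 and 1189 at 24 months. The 3 P75 libraries were the lowest of the 12 and the 3 6-month libraries the highest, with no overlap with the others, while P18 and 24 months overlapped. The log2 change was -0.98 ± 0.14 (limma adjusted p = 7.14e-05) from P18 to P75, 1.68 ± 0.14 (limma adjusted p = 3.29e-07) to 6 months, a 3.20-fold rise, and -0.68 ± 0.14 (limma adjusted p = 0.00555) to 24 months. Over the whole span it was 0.02 ± 0.14 (limma adjusted p = 0.932). The gene lies on chromosome 6, 87949100 to 87995264, minus strand (NCBIM37), in 10 merged exons. Of its windows 51.3% recurred elsewhere, 1093 of them near 1 place outside any annotated gene, so some of its reads may belong to that copy or be missing here. Its exons also overlap those of Gm5577 on the other strand over 204 bases.

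Rab9 returns mannose 6-phosphate receptors from late endosomes to the Golgi, and Rab9b is its close relative. Both genes lie on chromosome X. Rab9 gave 1677, 1586 and 1511 in the P18 libraries, 1408, 1544 and 1690.3 in those of P75, 786, 847 and 989.6 at 6 months and 1003, 1107 and 984 at 24 months. From P75 to 6 months it changed by -0.83 ± 0.10 (limma adjusted p = 5.19e-06), after -0.04 ± 0.10 (limma adjusted p = 0.753) from P18 to P75. Its later rise of 0.24 ± 0.10 (limma adjusted p = 0.0883) to 24 months, when the ages overlapped, was no longer called without any 1 of 6 months replicates 1 and 2 or of the 24-month libraries, at changes of 0.17 to 0.28, nor with libraries scaled to the same total (0.20). The counts of Rab9b were 801, 733 and 619.7 in the P18 libraries, 551, 568 and 597 in those of P75, 823, 765 and 853 at 6 months and 668, 830.4 and 779 at 24 months. Here the change to 6 months was upward, 0.51 ± 0.10 (limma adjusted p = 0.000763), after a change of -0.32 ± 0.10 (limma adjusted p = 0.0225) that was not called without P18 replicate 1 (-0.24) or with libraries scaled to the same total (-0.19). Rab9 thus made up 71.9% to 73.9% of the pair's counts at P75 and 48.8% to 53.7% at 6 months. Such shares, here and below, are of counts not corrected for length and do not rank the isoforms. Per kilobase Rab9 was at 500 and Rab9b at 204 at 6 months. Of the windows of Rab9 29.1% matched a pseudogene annotated as Rab9b-ps1, and of Rab9b 1.62% recurred anywhere.

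Rab24, an atypical Rab found on autophagosomes, lies on chromosome 13, 55420584 to 55423341, minus strand. Its counts were 1542, 1618 and 1871 in the P18 libraries, 1578, 1849 and 1899 in those of P75, 889.6, 948 and 1104 at 6 months and 1404, 1278 and 1289 at 24 months. The 6-month libraries were the lowest 3 of the 12. The change was 0.08 ± 0.10 (limma adjusted p = 0.553) from P18 to P75, -0.86 ± 0.10 (limma adjusted p = 5.82e-06) to 6 months and 0.44 ± 0.10 (limma adjusted p = 0.00954) to 24 months, and -0.34 ± 0.10 (limma adjusted p = 0.00893) from first to last age. No window of Rab24 recurred elsewhere in the genome.

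**Figure D3:**
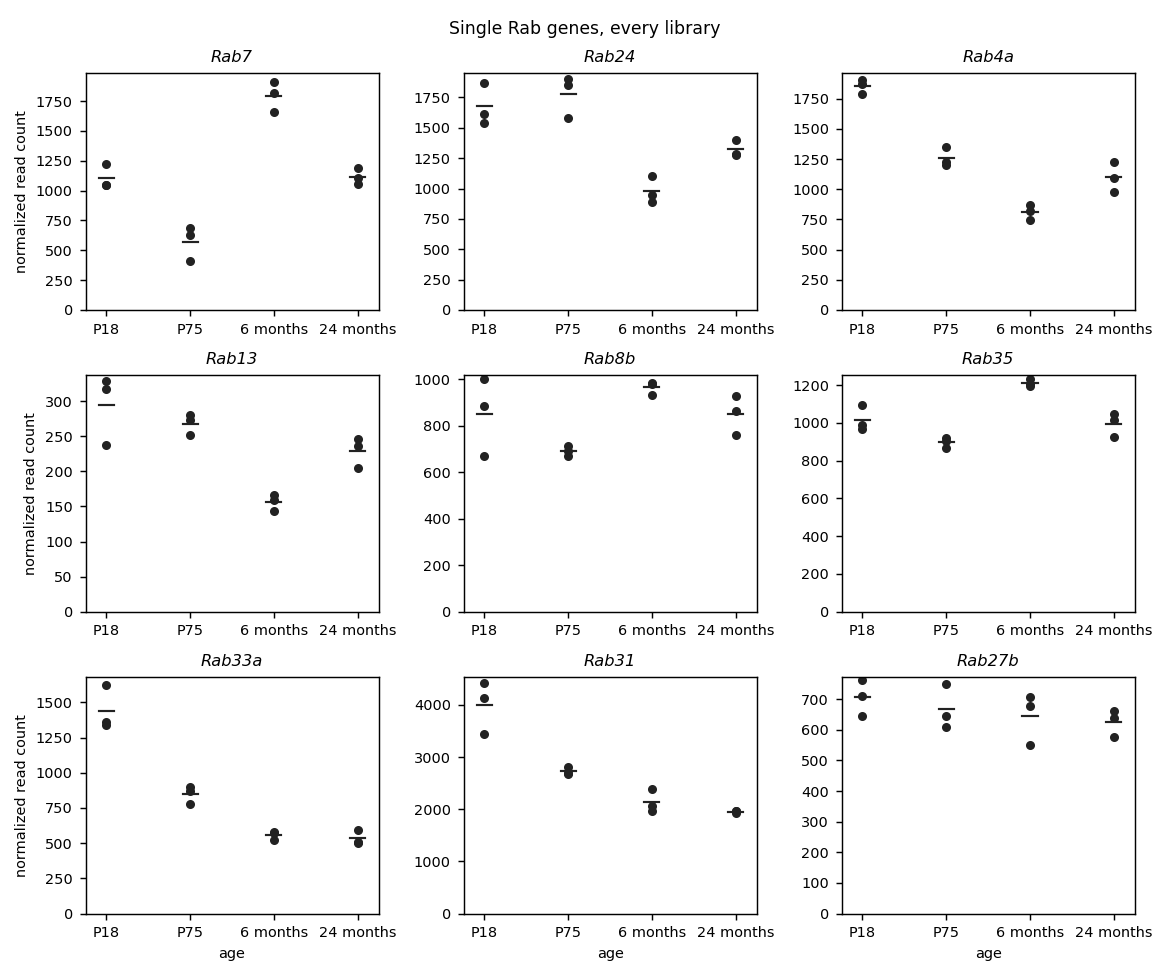
Normalized read counts of 9 Rab genes in each of the 12 libraries by age, with points for libraries and a bar for the mean of 3, each axis starting at 0. Rab7 has its lowest values at P75 and its highest at 6 months, Rab24, Rab4a and Rab13 have their lowest at 6 months, Rab33a and Rab31 are highest at P18, and the ages overlap in Rab27b.

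Among early endosomal genes, the isoforms of Rab5, the regulator of early endosome fusion, moved in opposite directions from P75 to 6 months. Rab5a gave 5429, 5091 and 5056 in the P18 libraries, 3938, 3894 and 4356 in those of P75, 3560.1, 3493 and 3784 at 6 months and 3835, 4026 and 3674 at 24 months. All 3 P18 libraries were above all later ones. The change was -0.35 ± 0.08 (limma adjusted p = 0.00218) from P18 to P75 and -0.43 ± 0.08 (limma adjusted p = 0.000182) over the whole span. With libraries scaled to the same total the first step was -0.23 and no longer called (limma adjusted p = 0.106). From P75 to 6 months it was -0.17 ± 0.08 (limma adjusted p = 0.0872), a call lost with the replicate number as a block (limma adjusted p = 0.117), with libraries scaled to the same total (limma adjusted p = 0.19) and without P75 replicate 3 or 6 months replicates 1 or 2 (-0.16 to -0.12). The counts of Rab5b were 2513, 2652 and 2437 in the P18 libraries, 2855, 2464 and 2317 in those of P75, 2899.6, 3560.2 and 3018 at 6 months and 2464, 2307 and 2364 at 24 months. This isoform changed by 0.00 ± 0.10 (limma adjusted p = 0.991) to P75, 0.31 ± 0.10 (limma adjusted p = 0.0114) to 6 months and -0.40 ± 0.10 (limma adjusted p = 0.00953) to 24 months. Of its windows 73.5% recurred elsewhere, nearly all at the predicted gene Gm13991 on chromosome 2, and of those of Rab5a 43.8%, so the counts of both are uncertain. For Rab5c, with 0% of windows elsewhere, the 4 means from P18 to 24 months were 3457 ± 119, 2358 ± 177, 2873 ± 205 and 2405 ± 71.4, with changes of -0.55 ± 0.08 (limma adjusted p = 7.89e-05), 0.28 ± 0.08 (limma adjusted p = 0.00829) and -0.25 ± 0.08 (limma adjusted p = 0.0411).

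Rab31 (also Rab22b), which moves receptors between the trans-Golgi network and endosomes, was highest at P18. It gave 4135, 4413 and 3434 in the P18 libraries, 2681, 2815 and 2692 in those of P75, 2068, 2379 and 1959 at 6 months and 1958, 1936 and 1969.8 at 24 months. Each P18 library was above every later one, and 6 and 24 months overlapped. The change was -0.54 ± 0.10 (limma adjusted p = 0.000347) to P75, -0.36 ± 0.10 (limma adjusted p = 0.00517) to 6 months and -0.12 ± 0.10 (limma adjusted p = 0.387) to 24 months. From P18 to 24 months it came to -1.02 ± 0.10 (limma adjusted p = 1.39e-07), a 2.03-fold fall. The gene lies on chromosome 17, 66001066 to 66122092, minus strand, and none of its windows recurred.

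Rab4a serves the fast recycling route from early endosomes to the cell surface. Its normalized read counts were 1873, 1792 and 1902 in the P18 libraries, 1227, 1349 and 1204 in those of P75, 744, 869 and 823 at 6 months and 1223, 979 and 1093 at 24 months. The 3 P18 libraries were the highest and the 3 6-month libraries the lowest of the 12. Rab4a changed by -0.56 ± 0.09 (limma adjusted p = 0.000195), -0.63 ± 0.09 (limma adjusted p = 3.66e-05) and 0.43 ± 0.09 (limma adjusted p = 0.00611) in the 3 consecutive comparisons. The gene lies on chromosome 8, 126329885 to 126359187, plus strand. It supplied 51.0% to 54.2% of the counts of Rab4a and Rab4b together at P18 and 38.9% to 39.8% at 6 months. Exons of Rab4b overlap those of the annotated genes AC157553.1 and Mia1 on the same strand, which limits that share. The overlap came to 1368 bases summed over both genes, so that bases shared with both count again, and the exons of Rab4b span 1970 bases.

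Rab11, of the slow recycling route through the perinuclear endosome, has the isoforms Rab11a and Rab11b, and the difference between their changes was not tested. Rab11a gave 6278, 5512 and 5915 in the P18 libraries, 4721, 5080 and 5683 in those of P75, 3317, 3299 and 3815 at 6 months and 4026, 4265 and 3985 at 24 months. It changed by -0.20 ± 0.09 (limma adjusted p = 0.102) from P18 to P75, with overlapping ages, and fell by 0.57 ± 0.09 on the log2 scale to 6 months (limma adjusted p = 9.52e-05). The rise of 0.24 ± 0.09 (limma adjusted p = 0.0789) to 24 months was not called without any 1 of 6 months replicates 1 and 2 or of the 24-month libraries (0.20 to 0.26), nor with libraries scaled to the same total (0.20). The counts of Rab11b were 6072, 6129 and 6702 in the P18 libraries, 4533, 5078 and 3947 in those of P75, 3911, 4506 and 4174 at 6 months and 3661, 3669 and 3708 at 24 months. Its fall came first, -0.49 ± 0.10 (limma adjusted p = 0.000761) from P18 to P75, with -0.10 ± 0.10 (limma adjusted p = 0.383) and -0.19 ± 0.10 (limma adjusted p = 0.173) afterwards. The windows of Rab11b recurred elsewhere to 56.3%, most of them at the pseudogene Rab11b-ps2, against 0% for Rab11a.

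Rab35 controls fast recycling and has been studied in the trafficking of PLP to the oligodendrocyte surface. It gave 1094, 986 and 965 in the P18 libraries, 904, 923 and 864 in those of P75, 1235, 1207 and 1195 at 6 months and 927, 1016 and 1045 at 24 months. The 6-month libraries were the highest 3 of the 12. The changes were 0.43 ± 0.08 (limma adjusted p = 0.000288) from P75 to 6 months and -0.28 ± 0.08 (limma adjusted p = 0.0224) to 24 months, and -0.03 ± 0.08 (limma adjusted p = 0.786) from P18 to 24 months. The first step, -0.18 ± 0.08 (limma adjusted p = 0.0883), was not called with any 1 of P18 replicates 1 and 2 or of the P75 libraries left out (-0.20 to -0.12), nor by DESeq2 (adjusted p = 0.101). With libraries scaled to the same total it was -0.05 (limma adjusted p = 0.747).

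Rab15, an endosomal Rab best known from neurons, gave 3719, 4100.4 and 3839.9 in the P18 libraries, 2547, 2440.3 and 2072 in those of P75, 2399, 2547 and 2404 at 6 months and 1760.4, 2205 and 2216 at 24 months. Every P18 library was above all others. The change of -0.73 ± 0.10 (limma adjusted p = 4.16e-05) to P75 was followed by 0.06 ± 0.10 (limma adjusted p = 0.617) to 6 months. The further -0.26 ± 0.10 (limma adjusted p = 0.0805) to 24 months was not called without any 1 of the 6-month libraries (-0.27 to -0.23) or without 24 months replicate 1 (-0.15).

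In the ER and Golgi group, Rab6 and its neuronal isoform Rab6b were both abundant. Rab6 gave 14157, 13607 and 13437 in the P18 libraries, 12671, 11459.8 and 11896 in those of P75, 15338, 16074 and 15325 at 6 months and 13467, 14056 and 13233 at 24 months. The 6-month libraries were the highest of the 12 and the P75 libraries the lowest. Rab6 rose by 0.38 ± 0.09 (limma adjusted p = 0.0022) from P75 to 6 months and changed by -0.20 ± 0.09 (limma adjusted p = 0.127) to 24 months. From P18 to P75 the change was -0.19 ± 0.09 (limma adjusted p = 0.0935), not called without P18 replicates 1 or 2 or P75 replicates 2 or 3 (-0.20 to -0.16). With libraries scaled to the same total it was -0.07 (limma adjusted p = 0.669). The counts of Rab6b were 11015, 11856 and 10134 in the P18 libraries, 7244, 6903 and 5954 in those of P75, 9297, 9322 and 8697 at 6 months and 6339, 6932 and 6921 at 24 months. It changed in every consecutive comparison, by -0.72 ± 0.10 (limma adjusted p = 3.4e-05), 0.45 ± 0.10 (limma adjusted p = 0.0011) and -0.44 ± 0.10 (limma adjusted p = 0.00715). Rab6b was 43.0% to 46.6% of the pair's counts at P18 and 32.0% to 37.7% at the later ages, without overlap, and only 0.34% of its windows recurred.

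Rab2a and Rab2b, which act between the ER and the Golgi, also moved in opposite directions from P75 to 6 months. Rab2a gave 13285, 12638 and 12884 in the P18 libraries, 10701, 11494 and 12011 in those of P75, 7555, 7817 and 8298 at 6 months and 7833, 8363 and 8188 at 24 months. The P18 and P75 libraries were all above those of 6 and 24 months. Its change was -0.18 ± 0.09 (limma adjusted p = 0.102) to P75, -0.53 ± 0.09 (limma adjusted p = 9.96e-05) to 6 months and 0.04 ± 0.09 (limma adjusted p = 0.763) to 24 months. The counts of Rab2b were 911, 998 and 828 in the P18 libraries, 619, 634 and 543 in those of P75, 718, 763 and 721 at 6 months and 508, 596 and 579 at 24 months. For this isoform the changes were -0.61 ± 0.10 (limma adjusted p = 0.000139), 0.30 ± 0.10 (limma adjusted p = 0.0165) and -0.39 ± 0.10 (limma adjusted p = 0.0118). Rab2b held 4.32% to 5.47% of the counts of the pair at P75 and 8.0% to 8.9% at 6 months.

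Rab33a, a Golgi Rab that is abundant in the brain and immune system, had the largest decline of the family over the whole span. It gave 1342, 1358 and 1625 in the P18 libraries, 776, 867 and 901 in those of P75, 523, 572 and 582 at 6 months and 596, 506 and 503 at 24 months. Every library of P18 was above every library of P75, and those were above every library of 6 months, which overlapped 24 months. The change was -0.76 ± 0.10 (limma adjusted p = 2.87e-05), -0.60 ± 0.10 (limma adjusted p = 0.000134) and -0.07 ± 0.10 (limma adjusted p = 0.684) in turn, and -1.43 ± 0.10 (limma adjusted p = 6.29e-09) from P18 to 24 months, a 2.69-fold fall. The gene lies on chromosome X, 45872462 to 45883409, plus strand, in 2 merged exons. Its relative Rab33b, which binds the autophagy protein ATG16L1, had means of 1124 ± 243 at P18 and 1032 ± 112 at 24 months. Rab33a was 51.4% to 65.8% of the pair at P18 and 33.1% to 35.2% at 24 months.

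Rab8 and Rab13 carry cargo to the plasma membrane. Rab8b gave 1002, 884 and 668 in the P18 libraries, 690.5, 670.4 and 714 in those of P75, 979.8, 931 and 985 at 6 months and 759.8, 929.9 and 863 at 24 months. The P75 and 6-month libraries did not overlap, and the rise between them was 0.48 ± 0.12 (limma adjusted p = 0.00315). The change from P18 to P75, -0.28 ± 0.12 (limma adjusted p = 0.0736), rested on P18 libraries that ranged from 668 to 1002. It was -0.15 without P18 replicate 1 and -0.44 without P18 replicate 3, and the call was also lost without P18 replicate 2 or any P75 library (-0.30 to -0.24), and with libraries scaled to the same total (-0.15). Rab13, best known from tight junctions, gave 328, 318 and 237 in the P18 libraries, 273, 251 and 279.7 in those of P75, 144, 167 and 159 at 6 months and 247, 236 and 205 at 24 months. Its 6-month libraries were the lowest of the 12, after a change of -0.77 ± 0.13 (limma adjusted p = 0.000129) and before a rise of 0.55 ± 0.13 (limma adjusted p = 0.0101). From P18 to 24 months it changed by -0.35 ± 0.13 (limma adjusted p = 0.0271), with overlapping ages and no call without P18 replicates 1 or 2 or 24 months replicate 3 (-0.29 to -0.26).

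The 4 Rab3 genes, which control the docking of secretory and synaptic vesicles, were all called as falling from P18 to P75. Rab3b went from 2065 ± 520 to 1487 ± 305 (SD, n = 3), a change of -0.46 ± 0.15 (limma adjusted p = 0.021). Its ages overlapped, and it was not among the genes that fell with libraries scaled to the same total. Rab3a gave 12356, 12591 and 16151 in the P18 libraries, 7881, 9213 and 7807 in those of P75, 9733, 10599.9 and 10053 at 6 months and 8509, 8322 and 8772 at 24 months. Its P18 libraries were the highest of the 12. The change to P75 was -0.72 ± 0.11 (limma adjusted p = 9.99e-05). The part of neuronal transcripts in it was not tested. The rise to 6 months of 0.29 ± 0.11 (limma adjusted p = 0.0346) was not called without P75 replicates 1 or 3 or 6 months replicate 2 (0.25 to 0.26), and the change to 24 months was -0.25 ± 0.11 (limma adjusted p = 0.12). Rab3c had means of 10441 ± 255, 7453 ± 278, 6924 ± 478 and 5394 ± 427 in the order of the ages, and changed by -0.49 ± 0.09 (limma adjusted p = 0.000421) from P18 to P75 and by -0.36 ± 0.09 (limma adjusted p = 0.0115) from 6 to 24 months. Rab3d, known from exocrine granules, gave 171, 174 and 168 in the P18 libraries, 106, 89.9 and 102 in those of P75, 122, 118 and 116 at 6 months and 112, 99.5 and 121 at 24 months. It changed by -0.78 ± 0.12 (limma adjusted p = 0.000125) from P18 to P75, with all P18 libraries above all others. Its change of 0.26 ± 0.12 (limma adjusted p = 0.0891) to 6 months was not called with the replicate number as a block (limma adjusted p = 0.107), by DESeq2 (adjusted p = 0.167), with libraries scaled to the same total (0.25), after quantile normalization (0.21), without the filter on low values, or without any 1 of P75 replicates 2 and 3 and the 6-month libraries (0.19 to 0.28).

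**Figure D4:**
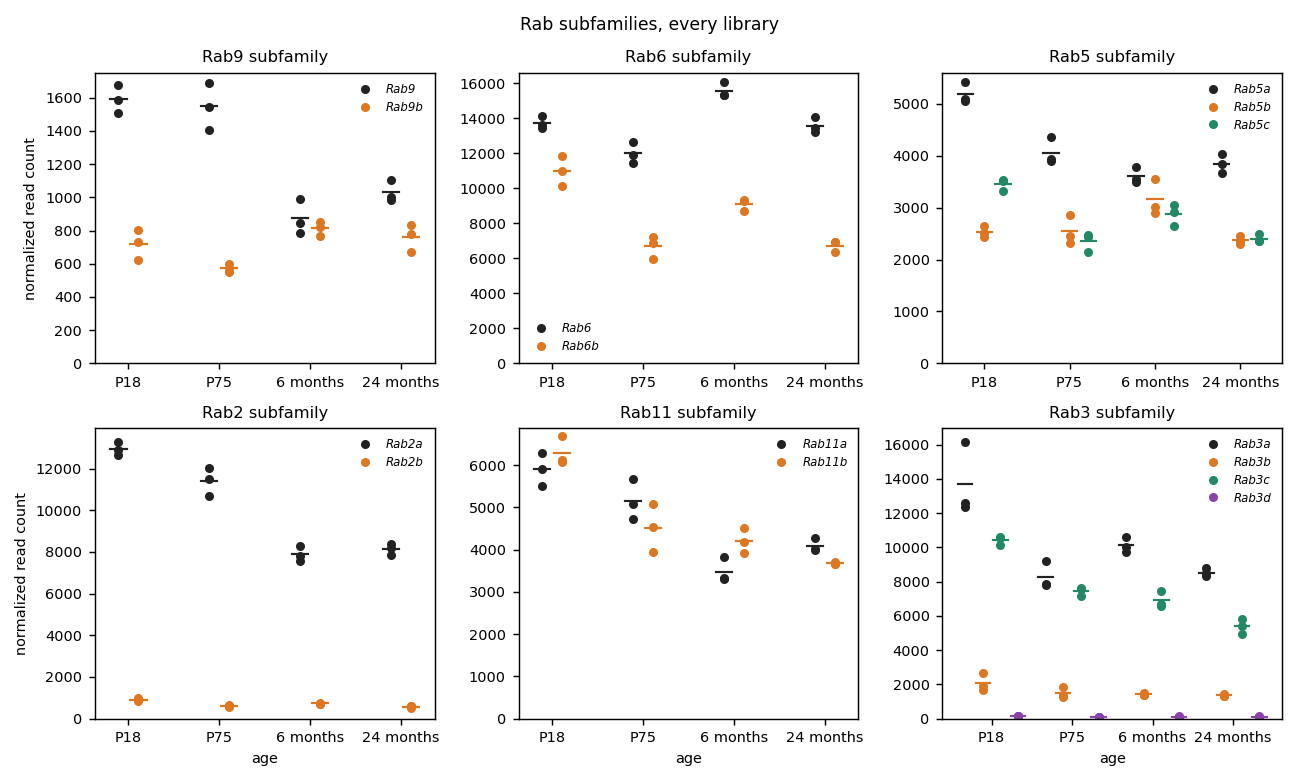
Normalized read counts of the isoforms of the Rab9, Rab6, Rab5, Rab2, Rab11 and Rab3 subfamilies in each library by age. Points are libraries and a bar gives the mean of 3. Rab6b and Rab5a have their highest values at P18, and Rab2a is lower at 6 and 24 months than at P18 and P75.

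Rab27a and Rab27b, which dock exosomes and secretory lysosomes, showed no called change in the 4 comparisons made. Rab27a gave 122, 131 and 124 in the P18 libraries, 139, 121 and 135 in those of P75, 132, 112 and 124 at 6 months and 129, 124 and 128 at 24 months. Rab27b gave 712, 763 and 647 in the P18 libraries, 644, 608 and 749.5 in those of P75, 678, 551 and 707 at 6 months and 639, 661 and 576 at 24 months. The ages overlapped in each comparison for both genes. From P18 to 24 months the log2 change of Rab27a was 0.02 ± 0.12 (limma adjusted p = 0.922), with a 95% interval of -0.22 to 0.25, and that of Rab27b -0.18 ± 0.11 (limma adjusted p = 0.176), with an interval of -0.39 to 0.04. Rab27b held 81.8% to 85.3% of the counts of the pair, which are not corrected for length. Per kilobase of merged exons Rab27b was at 61.9 and Rab27a at 42.6 over the 12 libraries.

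Rab34, which is needed to build cilia inside the cell, gave 336, 394 and 423 in the P18 libraries, 334, 305 and 309.5 in those of P75, 191, 215 and 208 at 6 months and 328, 231 and 243 at 24 months. All 6-month libraries were below all others. The change from P75 to 6 months was -0.63 ± 0.13 (limma adjusted p = 0.000788). The rise of 0.37 ± 0.13 (limma adjusted p = 0.0568) to 24 months was not called without 6 months replicate 1 (0.32) or 24 months replicate 1 (0.21), the library with the highest value at that age, or with libraries scaled to the same total (0.33).

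Genes that regulate or serve the Rab cycle were taken from 133 listed symbols, of which 127 passed the same filter. From P18 to P75, 24 of them rose and 43 fell, or 18.9% and 33.9%, where 25.9% of all genes rose and 22.9% fell. With libraries scaled to the same total 31 rose and 28 fell, and the shares of all genes under that scaling were not counted. From P75 to 6 months 48 rose and 18 fell, or 37.8% and 14.2% against 31.2% and 29.4% of all genes. After quantile normalization 44 rose and 27 fell, again with no count over all genes. From 6 to 24 months 5 rose and 39 fell, or 3.94% and 30.7% against 16.6% and 12.7% of all genes. Without 6 months replicate 1 these were 2 and 25, and the rises numbered 3 without 24 months replicate 1 or replicate 2. Over the whole span 31 rose and 46 fell, or 24.4% and 36.2% against 34.7% and 34.3% of all genes.

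Gdi2 encodes an inhibitor that holds Rab proteins in the cytosol. Its means from P18 to 24 months were 4957 ± 205, 4301 ± 195, 7308 ± 123 and 6128 ± 89.4, with the largest change, 0.77 ± 0.08 (limma adjusted p = 1.25e-06), from P75 to 6 months. Its first step of -0.20 ± 0.08 (limma adjusted p = 0.0426) was not called without P18 replicates 1 or 2 or P75 replicate 2 (-0.19 to -0.17). With libraries scaled to the same total it was -0.08 (limma adjusted p = 0.583). Rabac1, a receptor that helps release Rab proteins from the inhibitor, rose from 2891 ± 562 at P18 to 4433 ± 471 at P75, a change of 0.63 ± 0.12 (limma adjusted p = 0.000797), and its rise of 0.42 ± 0.12 (limma adjusted p = 0.0276) to 24 months was not called without 6 months replicate 1 (0.33).

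Rims1 and Rims2 encode effectors of Rab3 that form the scaffold of the presynaptic active zone. Rims1 gave 608, 928 and 912 in the P18 libraries, 528, 275 and 229 in those of P75, 1445, 1408 and 1192 at 6 months and 688, 724 and 710 at 24 months. It changed by -1.31 ± 0.22 (limma adjusted p = 0.000236), 2.06 ± 0.22 (limma adjusted p = 2.41e-06) and -0.92 ± 0.22 (limma adjusted p = 0.0108) in the 3 consecutive comparisons, with no overlap between neighbouring ages. Rims2 had means of 1157 ± 206, 529 ± 87.5, 1681 ± 208 and 1248 ± 107, and its change of -0.43 ± 0.14 (limma adjusted p = 0.0415) to 24 months was not called without 6 months replicates 1 or 2 or 24 months replicate 3 (-0.41 to -0.34). Rph3a, which encodes the synaptic vesicle protein rabphilin, went from 4873 ± 942 at P75 to 12402 ± 1914 at 6 months, a change of 1.36 ± 0.15 (limma adjusted p = 3.39e-06).

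Among effectors of other Rab proteins, Exph5, which binds Rab27, had means of 428 ± 32.4 at P18, 666 ± 68.2 at P75 and 1062 ± 45.2 at 6 months, with changes of 0.64 ± 0.09 (limma adjusted p = 6.77e-05) and 0.68 ± 0.09 (limma adjusted p = 2.09e-05). Sytl4, which binds Rab27 and Rab3, gave 60.6, 49.7 and 43.2 in the P18 libraries, 126, 80.7 and 79.6 in those of P75, 159, 184 and 162 at 6 months and 299, 230.3 and 193 at 24 months. From P18 to 24 months it rose by 2.20 ± 0.20 (limma adjusted p = 7.02e-08). Its last step of 0.49 ± 0.20 (limma adjusted p = 0.0829) was not called without any 1 of the 6-month libraries or 24 months replicates 1 or 2 (0.33 to 0.56), without the filter on low values, with libraries scaled to the same total (0.45) or after quantile normalization (0.45). Appl2, which binds Rab5 on early endosomes, changed by 0.77 ± 0.08 (limma adjusted p = 3.43e-06), -0.36 ± 0.08 (limma adjusted p = 0.00135) and 0.31 ± 0.08 (limma adjusted p = 0.0158). Rab11fip2, which links Rab11 to myosin Vb, dropped from 1387 ± 202 at P75 to 805 ± 56.98 at 6 months, a change of -0.78 ± 0.10 (limma adjusted p = 1.22e-05).

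Among exchange factors, Dennd5a, which acts on Rab39, changed by 0.66 ± 0.22 (limma adjusted p = 0.0243) from P18 to P75, but P18 replicate 3 lay at 5525 against 9916 and 11024.5 for the other two, and without it the change was 0.35 and not called, nor without P75 replicate 1 (0.49). Ankrd27, which acts on Rab21, changed by -0.54 ± 0.09 (limma adjusted p = 0.00015) to 6 months. Hps4, part of the exchange factor for Rab32 and Rab38, rose by 0.48 ± 0.11 (limma adjusted p = 0.00691) from 6 to 24 months. Among GTPase-activating proteins, Tbc1d16, which acts on Rab4, changed by -1.11 ± 0.11 (limma adjusted p = 2.63e-06) from P18 to P75, and Tbc1d12 by -0.69 ± 0.13 (limma adjusted p = 0.000266) to 6 months. Tbc1d20, which acts on Rab1 and Rab18, was at 98.4 ± 29.5 at P75, 242 ± 3.68 at 6 months and 138 ± 1.89 at 24 months, with changes of 1.33 ± 0.17 (limma adjusted p = 8.14e-06) and -0.81 ± 0.17 (limma adjusted p = 0.00465). Evi5l, also of that class, changed by -0.65 ± 0.15 (limma adjusted p = 0.00907) from 6 to 24 months.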

How the data were processed

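RNA sequencing was analysed from 12 myelin libraries, 3 at each of 4 ages, grouped by the age in the labels. Per the labels and the study's methods, the authors mapped reads to mm9 (TopHat 2.0.8 in the submitters' processing notes), counted them per gene with HTSeq 0.5.4p1 and normalized with DESeq. The deposited signal is this normalized read count of 21937 genes, with no length correction. How reads with several matches were counted is not given in the sources used here. Low values were whole multiples of the value of 1 read in 100% of cases (tolerance 0.1 read), which gave whole reads for edgeR and DESeq2.

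Ages were compared with limma 3.58.1 (R 4.3.3, trend, empirical Bayes, two-sided) on log2(normalized read count + 1) in 1 fit of all libraries, over 14634 genes that averaged 10 or more. Changes are on that scale, which understates those of low genes. Genes were called at a Benjamini-Hochberg adjusted p under 0.1. The script was tested on simulated data. The members and lists were chosen with earlier results of these data known. Library values were printed for the 4 Rab genes with the largest rise and the 4 with the largest fall in each consecutive comparison (called, mean of at least 100 at 1 age), the 3 most abundant, and 9 chosen for their role. Of regulators and effectors, the 3 largest rises and falls per comparison and Gdi2 were named, and 1 gene under that rule is not reported here. Rab3b, Rab3c, Rab5c, Rab23, Rab33b and Rab37 were described after their values were seen. Alternatives were edgeR 4.0.16, DESeq2 1.42.0, other pseudocounts, filters, scalings and thresholds, fits of 2 ages, a replicate block, and each library left out.

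Per the study's text, the 3 libraries of 6 months came from separate mice. For the other ages the sources used here do not say so, and p-values there measure the spread between these libraries, which may be technical. Deviations of same-numbered libraries from their age means correlated by 0.16, 0.10 and 0.19 for P75 and 6 months, each above 0.1, so there the blocked value is printed where it changes a call. The pairing is a hint from the data alone. For P18 and P75 the values were -0.03, -0.15 and -0.14, for 6 and 24 months -0.21, -0.07 and -0.06, and for P18 and 24 months -0.05, 0.03 and 0.02. Positions and sequences come from GENCODE vM1 on NCBIM37, where 57 of 57 genes were found.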

Additional observations from a re-analysis of the deposited data

How the results depend on the processing

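For the 115 called changes of genes chosen by rule, 1841 alternatives kept direction and call, 114 lost only the call and 0 reversed. Of the lost calls 67 came from leaving out a library and 13 from scaling libraries to the same total. That scaling left 17 changed Rab genes from P18 to P75 in place of 28. Without single libraries the Rab counts ranged from 22 to 32 for P18 to P75, 28 to 33 for P75 to 6 months, 10 to 16 for 6 to 24 months (10 without 24 months replicate 1) and 34 to 37 for P18 to 24 months. For regulators and effectors they were 55 to 64, 59 to 62, 27 to 39 (27 without 6 months replicate 1) and 68 to 76. With the replicate number as a block, 26, 31, 15 and 37 Rab genes changed and 65, 62, 41 and 78 regulators and effectors. Besides the calls named in the report, the block ended those of Rab6 (limma adjusted p = 0.127) and Rab35 (0.119) from P18 to P75. It also ended that of Rab9 from 6 to 24 months (limma adjusted p = 0.103), and no other call of the genes chosen by rule. The checks gene by gene did not cover Rab3b, Rab3c, Rab5c, Rab23, Rab33b or Rab37. Fits of only the 2 ages ended the calls of Rab6, Rab35, Rab8b and Gdi2 from P18 to P75 (limma adjusted p = 0.185, 0.165, 0.136 and 0.111). They also ended those of Rab5a and Rab3d from P75 to 6 months (limma adjusted p = 0.124 and 0.118). Without the filter on low values, Rab6 from P18 to P75 and Rab9 from 6 to 24 months lost theirs (limma adjusted p = 0.13 and 0.104). Depth limits Rab17, Rab19, Rab20, Rab25, Rab44 and Rab38, which had at most 23 reads in a library. An exact test of 3 against 3 libraries cannot go below 0.1.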
